A study of Homo sapiens with 4 samples.

Results

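The family of miR-130, miR-301 and miR-454 was followed in cortical interneurons, the inhibitory nerve cells of the cortex, which had been derived in culture from the human embryonic stem cell line H1. The family was represented by 8 mature miRNAs chosen by name from the 2656 mature miRNAs of the count table: hsa-miR-130a-3p, hsa-miR-130b-3p, hsa-miR-301a-3p, hsa-miR-301b-3p, hsa-miR-454-3p, hsa-miR-130b-5p, hsa-miR-301a-5p and hsa-miR-454-5p, written below without the prefix for human. Small RNA was sequenced from 2 cultures that had received ethanol at about 50 to 100 mM for 7 days and from 2 cultures kept for the same 7 days without ethanol, and the study's methods describe a further day without ethanol before the exposed cells were collected. All 4 libraries came from the H1 line, so they represent a single genetic background, and the treatments were done in duplicate. Nothing in the labels says whether the duplicates were separate differentiations, so the tests measure the spread between these libraries, which may be partly technical. The libraries held between 12100425 and 24858230 counts, and both exposed libraries were deeper than both unexposed libraries, so depth and exposure cannot be told apart.

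A miRNA precursor is a hairpin from which an arm at the 5' side (5p) and an arm at the 3' side (3p) can be released. The arm that is loaded into an Argonaute protein finds messenger RNAs mainly through its seed, bases 2 to 8, and lowers their output. The 3p arms of this family carry a common seed and are known for repressing PPARG, the master regulator of fat cell formation.

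The 3p sequences are shown because their common seed defines the family, with bases 2 to 8 in capitals (RefSeq, GRCh38.p14, written 5′ to 3′):

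miR-130b-3p: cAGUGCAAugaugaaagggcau

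miR-301a-3p: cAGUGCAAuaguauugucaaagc

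miR-301b-3p: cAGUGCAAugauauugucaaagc

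miR-454-3p: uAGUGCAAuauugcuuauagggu

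These lie at chr22:21653354-21653375 (+), chr17:59151149-59151171 (-), chr22:21653025-21653047 (+) and chr17:59137787-59137809 (-). RefSeq gave a sequence for 7 of the 8 members, and miR-130a-3p is given by name only. Bases 2 to 8 were AGUGCAA in each 3p member with a sequence. Of the 2370 human mature miRNA names in the RefSeq table, 6 (0.253%) had this seed. Besides the 4 printed these were miR-3666 and miR-4295, both with 0 counts in each library, so any level of them lay below the 0.121 to 0.248 CPM (counts scaled to a library of 1000000) that 3 counts make. The members of a pair can be hard to tell apart in short reads. miR-301a-3p and miR-301b-3p have 23 bases each and differ at 2 positions, A10G and G11A, counted from the 5′ end with the base of miR-301a-3p first. miR-130b-3p and miR-301b-3p begin with the same 12 bases. How reads that match several miRNAs were shared out is not given in the sources used here.

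The 5p arms carry other seeds, and some contain the reverse complement of the family seed, UUGCACU, shown here in capitals because it sets miR-130b-5p and miR-301a-5p apart from miR-454-5p:

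miR-130b-5p: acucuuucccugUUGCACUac

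miR-301a-5p: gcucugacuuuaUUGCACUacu

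miR-454-5p: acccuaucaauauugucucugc

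They lie at chr22:21653316-21653336 (+), chr17:59151187-59151208 (-) and chr17:59137828-59137849 (-). In both arms that hold it, the motif starts at base 13. Among the 809 human 5p names in RefSeq, 3 (0.371%) contained UUGCACU, the third being miR-19a-5p, and over all names it was 8 (0.338%). A match of letters is a description of the sequence only. The motif was taken from the family's own 3p seed, so these shares do not test whether finding it in these arms is unusual.

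The 5 precursor genes sit at 3 places in the genome (GENCODE 29, GRCh38). MIR130A lies alone on chromosome 11 (57641198 to 57641286, + strand), in an intron of the noncoding gene AP000662.1. MIR301B (21652981 to 21653058, + strand) and MIR130B (21653304 to 21653385, + strand) are 245 bases apart on chromosome 22 within the noncoding gene AP000553.1, MIR301B in an intron and MIR130B overlapping an exon. MIR454 (59137758 to 59137872, - strand) and MIR301A (59151136 to 59151221, - strand) are 13263 bases apart on chromosome 17, both within introns of SKA2, which encodes a protein of the spindle and kinetochore complex.

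The cultures were checked against marker miRNAs. The 8 neuronal markers, led by miR-9-5p, summed to between 300000 and 480000 CPM in a library, all 8 were detected, and the pluripotency markers of the miR-302 and miR-371 groups summed to between 2.42 and 3.89 CPM, with miR-367-3p, miR-371a-3p and miR-373-3p at 0. Markers of oligodendrocytes summed to between 75.7 and 116 CPM, of blood and microglia to between 0.155 and 0.739 CPM with miR-223-3p and miR-142-3p at 0, of endothelium to between 807 and 1020 CPM, of mesenchyme to between 78.8 and 110 CPM, of muscle to between 178 and 404 CPM, of liver to between 16.5 and 44.2 CPM and of epithelium to between 79.7 and 162 CPM. An unadjusted P under 0.05 in edgeR was reached by miR-124-3p of the neuronal list, with a log2 fold change of 0.77, and miR-200a-3p of the epithelial list, with -0.70 (adjusted p = 0.922 for both). Over all tested miRNAs 4.52% reached it. The other neuronal markers went both ways. Log2 fold changes were 0.31 for miR-128-3p, 0.255 for miR-138-5p and 0.168 for miR-137-3p. They were -0.635 for miR-7-5p, -0.259 for miR-218-5p, -0.225 for miR-9-5p and -0.029 for miR-129-5p. The part of cell make-up in the values of the family was not tested, and in bulk cultures fewer cells of a type and less RNA per cell cannot be told apart.

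The family's levels spanned a wide range. Levels are CPM after TMM scaling, and since the members with a sequence have 21 to 23 bases they were not divided by length. Counts of different miRNAs also depend on how well each sequence is ligated and amplified, which was not tested, so differences between members are differences in reads. miR-130b-5p stood highest, and its mean was 2760 times that of the lowest member, miR-301a-3p. It ranked 30th among the 2656 miRNAs by mean level, while miR-454-3p ranked 87th, miR-130b-3p 121st, miR-130a-3p 135th, miR-454-5p 180th, miR-301a-5p 232nd, miR-301b-3p 480th and miR-301a-3p 622nd. The 8 members took from 0.408% to 0.674% of a library, and miR-130b-5p alone gave between 72.8% and 80.3% of the family's counts.

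**Figure D1:**
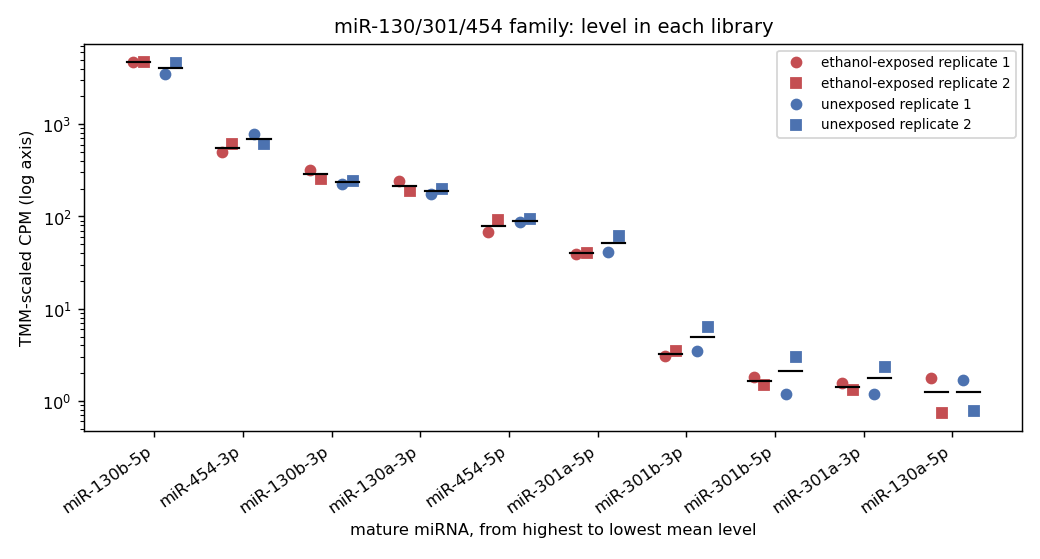
TMM-scaled level of each family member, and of the other arms miR-301b-5p and miR-130a-5p, in each of the 4 libraries (CPM, log axis); points are libraries and black lines group means. The mean levels run from about 4400 CPM for miR-130b-5p to 1.25 CPM for miR-130a-5p, and the libraries of a miRNA lie close together beside this whole range. Neighbours in the order can lie closer than the libraries of a single miRNA. For example, miR-301b-5p ran from 1.19 to 3.03 CPM, across the mean of miR-301a-3p at 1.59 CPM.

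The order of the levels was nearly the same in every library. miR-130b-5p was above miR-454-3p by 2.83 ± 0.46 on the log2 scale (mean and SD of the differences over 4 libraries), and miR-454-3p above miR-130b-3p by 1.25 ± 0.47. miR-130b-3p was above miR-130a-3p by only 0.37 ± 0.07, but in 4 of 4 libraries, from 0.27 to 0.44, so this small step was the steadiest of the order. miR-130a-3p was above miR-454-5p by 1.25 ± 0.39, miR-454-5p above miR-301a-5p by 0.91 ± 0.26, and miR-301a-5p above miR-301b-3p by 3.50 ± 0.19, each in 4 of 4 libraries. miR-301b-3p exceeded miR-301b-5p by 1.14 ± 0.33, also in 4 of 4 libraries. The lowest steps were not seen in every library: miR-301b-5p exceeded miR-301a-3p by 0.19 ± 0.16 in 3 of 4 libraries, and miR-301a-3p and miR-130a-5p differed by 0.41 ± 0.94, with miR-301a-3p higher in 2 of 4 libraries.

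The arms of the 5 precursors were not used in the same balance. For MIR130B the 5p arm dominated, with 14.9 and 18.4 reads of miR-130b-5p for each read of miR-130b-3p with ethanol against 15.5 and 19.0 without. For MIR301A it dominated further, with 25.5 and 30.7 reads of miR-301a-5p for each of miR-301a-3p with ethanol against 34.9 and 26.0 without. Both 5p arms hold UUGCACU. miR-301b-5p is given by name only, so no relation between the motif and the arm balance is read from the 5 precursors. For MIR454 the 3p arm, with the family seed, was ahead by 7.40 and 6.60 times in the exposed and 8.96 and 6.53 times in the unexposed libraries. For MIR130A the 3p arm took between 99.0% and 99.6% of the reads of both arms, and for MIR301B it took between 62.6% and 74.5%. Among 362 precursors with at least 100 counts over both arms, the 5p arm was ahead in 188 (51.9%). A lead of 5p larger than that of MIR130B was found for 125 of them (34.5%), and one larger than that of MIR301A for 107 (29.6%).

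**Figure D2:**
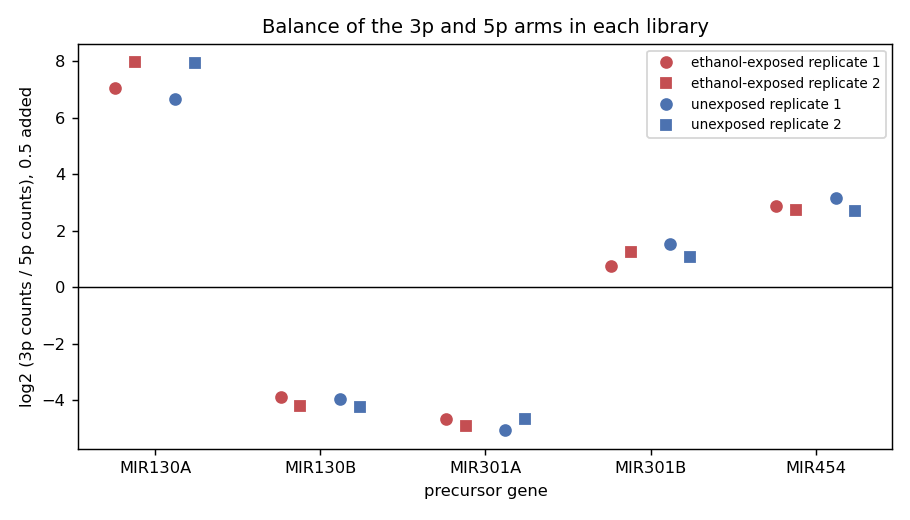
Balance of the arms of the 5 precursors: log2 of 3p over 5p counts, 0.5 added to each, 1 point per library. Values above 0 mean more 3p reads. MIR130B and MIR301A lie near -4 to -5 in all 4 libraries, and MIR454, MIR301B and MIR130A lie above 0.

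Whether exposure shifted the arm balance was asked of each precursor, since a ratio within a library does not depend on scaling. The mean log2 ratio of 3p over 5p was -4.05 ± 0.22 (SD, n = 2) in exposed and -4.10 ± 0.20 (SD, n = 2) in unexposed cells for MIR130B, and -4.79 ± 0.19 and -4.88 ± 0.28 for MIR301A. For MIR454 it was 2.81 ± 0.12 and 2.93 ± 0.32, for MIR301B 0.98 ± 0.35 and 1.29 ± 0.32, and for MIR130A 7.51 ± 0.64 and 7.30 ± 0.90. The differences, exposed minus unexposed, were 0.05, 0.09, -0.13, -0.31 and 0.21 in that order. The groups overlapped for each of the 5, and exact permutation tests (two-sided) returned 0.667 for MIR130B, MIR301A, MIR301B and MIR130A and 1 for MIR454. With 2 cultures against 2 such a test cannot give less than 0.333. The differences of MIR130A, MIR130B, MIR301A and MIR454 changed sign when a library was left out, and that of MIR301B kept its sign but shrank to -0.06 without ethanol-exposed replicate 1 and to -0.08 without unexposed replicate 1.

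The comparison of exposed with unexposed cells was made with edgeR's quasi-likelihood test over the 863 miRNAs that passed its filter on low counts, which included all 8 members. None of the 8 members was past an unadjusted P of 0.05 (0 members in edgeR, limma-voom and DESeq2), against 39 of the 863 tested miRNAs, 4.52%, in edgeR, 31 in limma-voom and 28 in DESeq2. Past a fold change of 2 as well there were 0 members and 20 miRNAs, 2.32%. The adjusted p was under 0.05 for 0 miRNAs (0.0%), and the lowest over all miRNAs was 0.922. Fold changes of the members were positive for 3, miR-130b-3p, miR-130b-5p and miR-130a-3p, and negative for 5, with unadjusted P from 0.144 to 0.498 in edgeR. In single directions 2.55% of all tested miRNAs were higher and 1.97% lower past this P. The median log2 fold change of the 8 members was -0.24, beside -0.01 over all tested miRNAs, and the median of the absolute values was 0.30, beside 0.25. The 95% intervals of 6 of the 8 lay within a 2-fold change in either direction, while those of miR-301a-3p and miR-301b-3p did not.

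**Figure D3:**
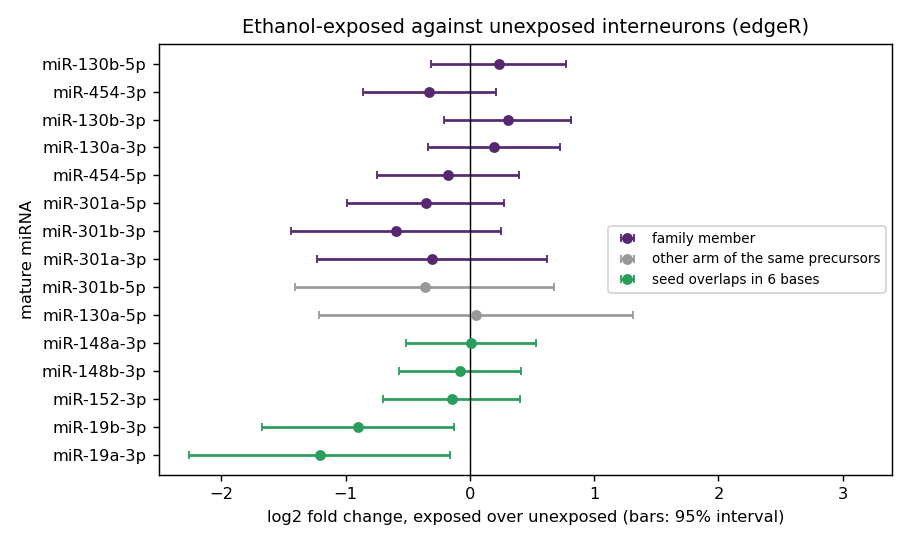
Log2 fold change of exposed over unexposed cells with its 95% interval from edgeR for the 8 members, the other arms of their precursors and 5 miRNAs whose seeds overlap the family seed in 6 bases. Every interval of a family member spans 0; those of miR-19a-3p and miR-19b-3p lie below 0.

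Among the carriers of the family seed, miR-454-3p was the most abundant. Its level was 501 and 603 CPM with ethanol against 778 and 606 CPM without. The groups did not overlap, but exposed replicate 2 and unexposed replicate 2 were nearly equal. In edgeR the log2 fold change was -0.33 (standard error 0.23, 95% interval -0.86 to 0.21; adjusted p = 0.922). It was -0.14 without unexposed replicate 1 and -0.53 without unexposed replicate 2, neither past an unadjusted P of 0.05.

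miR-130b-3p was at 320 and 257 CPM with ethanol against 226 and 241 CPM without, so that exposed replicate 1 stood above the other 3. Its fold change in edgeR was 0.30 on the log2 scale (standard error 0.22, interval -0.21 to 0.82; adjusted p = 0.922), and 0.14 without ethanol-exposed replicate 1 or 0.46 without ethanol-exposed replicate 2. miR-130a-3p, from its own locus, was at 241 and 189 CPM with ethanol against 176 and 200 CPM without. Its groups overlapped, with exposed replicate 1 again highest, and exposed over unexposed gave 0.19 in log2 (standard error 0.23, interval -0.34 to 0.73; adjusted p = 0.958 in edgeR). With the reads of miR-130a-3p and miR-130b-3p summed, as for members that reads may not separate, it was 0.26. For miR-130a-3p alone it was 0.01 without ethanol-exposed replicate 1, 0.36 without ethanol-exposed replicate 2 and 0.10 without unexposed replicate 1.

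miR-301b-3p was at 3.05 and 3.49 CPM with ethanol against 3.48 and 6.37 CPM without, on 77, 85, 41 and 82 counts. Of the 8 members it had the lowest unadjusted P, 0.144 in edgeR (adjusted p = 0.922). Its log2 fold change was -0.59, with a standard error of 0.37 and an interval from -1.44 to 0.25, and unexposed replicate 2 alone stood apart from the others. Its absolute fold change, the largest of the 8 members and resting on low counts, was larger than that of 87% of the miRNAs tested. Leaving out unexposed replicate 2 gave -0.12, and without unexposed replicate 1 it was -0.97 and past an unadjusted P of 0.05 in edgeR, where the lone unexposed library is taken to vary like the exposed ones. In that fit 99 miRNAs were past this P, against 39 with all libraries.

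miR-301a-3p had 39 and 32 counts with ethanol against 14 and 30 counts without. Before TMM scaling these were shares of 1.75 CPM (95% Wilson interval 1.28 to 2.40), 1.29 CPM (0.912 to 1.82), 1.00 CPM (0.598 to 1.69) and 2.48 CPM (1.74 to 3.54), intervals that hold counting error alone, as without molecular identifiers reads are not independent molecules. The unexposed libraries thus held both the lowest and the highest share, and the log2 fold change of -0.31 (standard error 0.40) became 0.23 without unexposed replicate 2. With the reads of miR-301a-3p and miR-301b-3p summed it was -0.51 (standard error 0.36), not past the threshold.

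Of the 5p members, miR-130b-5p was at 4770 and 4740 CPM with ethanol against 3510 and 4570 CPM without. The exposed libraries agreed closely, and unexposed replicate 1 was low. The fitted log2 fold change was 0.23 (standard error 0.23, interval -0.31 to 0.78; adjusted p = 0.937 in edgeR), and without unexposed replicate 1 it was 0.05. miR-301a-5p was at 39.5 and 40.4 CPM with ethanol against 41.4 and 60.7 CPM without, with unexposed replicate 2 above the other 3. The fold change came to -0.35 in log2 (standard error 0.27; adjusted p = 0.922 in edgeR), to -0.61, past an unadjusted P of 0.05 in the same fit with 99 such miRNAs, without unexposed replicate 1 and to -0.09 without unexposed replicate 2. miR-454-5p was at 67.6 and 91.3 CPM and at 86.8 and 92.8 CPM in exposed and unexposed libraries, with exposed replicate 1 lowest. The groups overlapped, and the log2 fold change was -0.18 with standard error 0.25.

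The groups did not overlap for 4 of the 8 members, 2 higher (miR-130b-3p and miR-130b-5p) and 2 lower (miR-454-3p and miR-301a-5p) in exposed cells. Over all tested miRNAs this held for 33.4%, 18.8% higher and 14.6% lower, and the two-sided exact permutation p was 0.333, the lowest the design allows, for these 4 and for miR-301b-3p. When levels were scaled by library size alone, the groups did not overlap for 1 member, miR-454-3p, against 30.8% of the miRNAs tested, 23.5% higher and 7.3% lower in exposed cells. With upper quartile scaling miR-301b-3p, lower in exposed cells, took the place of miR-130b-5p among the 4. With DESeq2's size factors miR-301b-3p joined the 4. The share over all tested miRNAs was not computed under these scalings, so the members cannot be set beside a background there. Scaling by library size also moved the median log2 fold change of all miRNAs from -0.01 to 0.15, and upper quartile scaling moved it to -0.12.

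**Figure D4:**
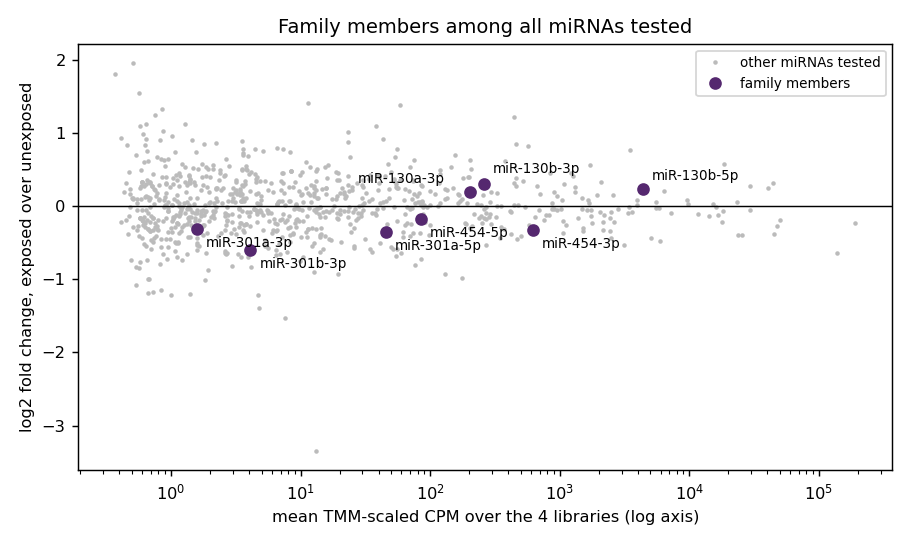
Log2 fold change of exposed over unexposed cells against the mean level (TMM-scaled CPM over the 4 libraries, log axis) for the 863 miRNAs tested. The 8 members, in purple, lie between -0.59 and 0.30, inside the cloud of the other miRNAs at their levels.

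Summed over the 5 3p members, the reads amounted to 1070 and 1050 CPM with ethanol against 1180 and 1060 CPM without. For miR-130a-3p, which is in this sum, no sequence was available, so its seed was not checked here. Exposed cells had a mean of 1060 ± 8.89 CPM and unexposed cells 1120 ± 91.4 CPM (SD, n = 2 for each), a log2 difference of -0.08, which was no larger than the spread within the groups (pooled SD 0.08). With library size only it was 0.08.

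In the make-up of this sum, miR-454-3p gave 47.0% (95% Wilson interval 46.4 to 47.6%) and 57.2% (56.6 to 57.8%) with ethanol, against 65.7% (64.9 to 66.4%) and 57.4% (56.6 to 58.2%) without. The replicate 2 libraries of the groups could not be told apart by counting error, and the replicates of a group differed far beyond it. miR-130b-3p gave 30.0% and 24.4% with ethanol against 19.1% and 22.8% without, and miR-130a-3p 22.6% and 18% against 14.8% and 18.9%. miR-301a-3p and miR-301b-3p were minor parts, at most 0.221% and 0.604%. The mean share of miR-454-3p was 52.1 ± 7.23% (SD, n = 2) in exposed and 61.5 ± 5.84% (SD, n = 2) in unexposed cells, and that of miR-130b-3p 27.2 ± 3.99% and 21.0 ± 2.65%. The difference for miR-454-3p, -9.44 percentage points, was -4.33 without ethanol-exposed replicate 1, -14.6 without ethanol-exposed replicate 2 and -5.31 without unexposed replicate 1. That for miR-130b-3p, 6.23 points, was 3.41 without ethanol-exposed replicate 1.

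**Figure D5:**
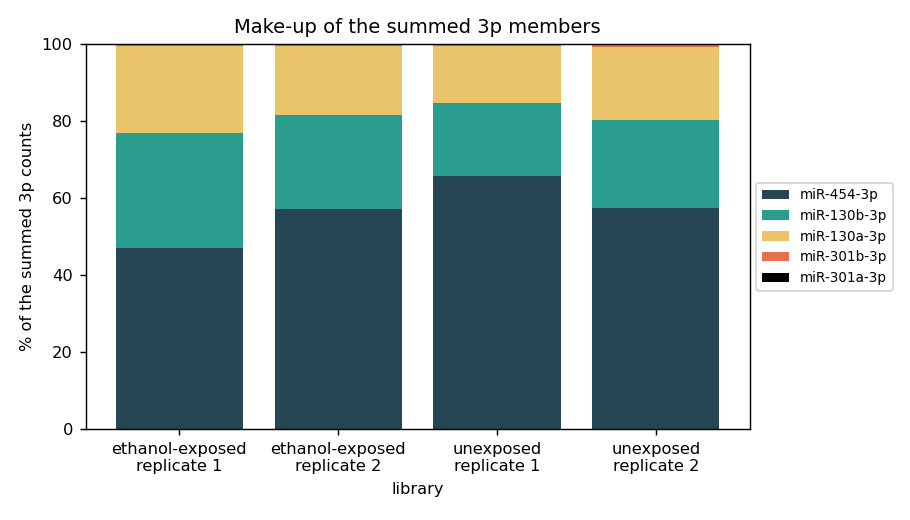
Make-up of the summed 3p reads in each library, in percent. miR-454-3p is the largest part in all 4 libraries, from 47.0% in ethanol-exposed replicate 1 to 65.7% in unexposed replicate 1, and miR-301a-3p and miR-301b-3p are barely visible.

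Members transcribed close to each other were compared within libraries. On chromosome 22 there were 105 and 73.6 reads of miR-130b-3p for each of miR-301b-3p with ethanol against 65.1 and 37.8 without. The log2 ratio was 6.45 ± 0.36 (SD, n = 2) in exposed and 5.62 ± 0.55 (SD, n = 2) in unexposed cells, a difference of 0.83 without overlap (exact permutation p = 0.333, the smallest possible), and 0.44 without unexposed replicate 2. For the 5p arms of the same genes the ratio of miR-130b-5p to miR-301b-5p overlapped, with log2 means of 11.48 ± 0.20 and 11.01 ± 0.67. On chromosome 17 there were 324 and 458 reads of miR-454-3p for each of miR-301a-3p with ethanol against 655 and 260 without. The difference in log2 ratio was -0.08 for these 3p arms and 0.14 for the 5p arms miR-454-5p and miR-301a-5p, with overlap for both. The seed carriers miR-454-3p and miR-130b-3p, from different chromosomes, had a log2 ratio of 0.94 ± 0.41 in exposed and 1.55 ± 0.32 in unexposed cells, also without overlap (difference -0.62, exact permutation p = 0.333), and -0.33 without ethanol-exposed replicate 1. Of the 6 ratios between members compared, 3 did not overlap, the third being miR-130b-3p over miR-130a-3p with a difference of 0.11. All 3 contain miR-130b-3p, whose own groups did not overlap, so they are not separate observations. Among single tested miRNAs 33.4% did not overlap, and no such share was computed for ratios. Adjustment over the 6 was not carried out, since no p here can fall below 0.333.

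The arms of these precursors outside the chosen members were rare. miR-130a-5p had 45 and 18 counts with ethanol against 20 and 10 counts without, and its log2 fold change of 0.05 had a standard error of 0.55. miR-301b-5p had 46 and 36 counts with ethanol against 14 and 39 without, and its log2 fold change was -0.36 with standard error 0.45. It was -0.88 without unexposed replicate 1 and changed sign, to 0.44, without unexposed replicate 2.

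Some miRNAs outside the family have seeds that share a run of 6 bases with the family seed, at a shifted position. They are shown because the shared bases are placed differently (bases 2 to 8 in capitals, RefSeq GRCh38.p14):

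miR-19b-3p: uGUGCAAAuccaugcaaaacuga

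miR-148a-3p: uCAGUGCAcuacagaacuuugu

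miR-148a-3p lies at chr7:25949922-25949943 (-), and miR-19b-3p has 2 loci, among them chr13:91351245-91351267 (+).

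miR-19a-3p and miR-19b-3p, known as growth-promoting members of a cluster on chromosome 13, share GUGCAA with the family seed, and miR-148a-3p, miR-148b-3p and miR-152-3p, known for repressing the DNA methyltransferase DNMT1, share AGUGCA. Of these 5, miR-19a-3p and miR-19b-3p had an unadjusted P under 0.05 in edgeR (adjusted p = 0.922 for both), where 4.52% of all tested miRNAs did. miR-19a-3p had 61 and 78 counts with ethanol against 110 and 48 counts without, or 2.42, 3.20, 9.32 and 3.73 CPM. The log2 fold change of miR-19a-3p was -1.21, with a standard error of 0.45, and without unexposed replicate 1 it was -0.42 and no longer past this P. That of miR-19b-3p was -0.90, and it was no longer past it without unexposed replicate 1 (-0.47), without ethanol-exposed replicate 1 (-0.82) or 2 (-0.98), or with library size only. With the replicate number as a block neither was past it, at log2 fold changes of -1.10 for miR-19a-3p and -0.85 for miR-19b-3p, and with crossed numbers as the block, at -1.11 and -0.86, both were. Fold changes of miR-148a-3p, miR-148b-3p and miR-152-3p were 0.01, -0.08 and -0.15, with signs that changed with the scaling. At 4110 and 3790 CPM with ethanol against 3580 and 4270 CPM without, miR-148a-3p was several times as abundant as the summed 3p members of the family.

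Likeness to the most abundant member was measured as the root mean square difference of log2 CPM, each miRNA centred on its own mean, over the 4 libraries. Among 375 other miRNAs with a mean of at least 10 CPM, miR-487b-3p (0.045), miR-328-3p (0.057) and miR-1226-3p (0.066) were nearest to miR-130b-5p, where the median miRNA was at 0.287. miR-328-3p, for instance, was at 1490 and 1380 CPM with ethanol against 1090 and 1300 CPM without. Among the family, miR-130a-3p (0.141, the 34th nearest) and miR-130b-3p (0.151, the 40th) were nearer to miR-130b-5p than miR-454-5p (0.287), miR-301a-5p (0.294) or miR-454-3p (0.398). With 4 libraries many profiles are alike, and this order is a description.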

How the data were processed

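Small RNA libraries (NEBNext) of 2 ethanol-exposed and 2 unexposed interneuron cultures were processed by the authors with CAP-miRseq, and the deposited table holds whole-number counts of reads for each mature miRNA, not normalized. The submitters' processing notes name hg19; neither the version of the pipeline nor the release of its miRNA annotation is stated in the sources used here. The counts carry no coordinates, so positions (RefSeq GRCh38.p14, GENCODE 29) were matched by name, which was possible for 2367 miRNA names.

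Here edgeR 4.0.16 (R 4.3.3) was run on the counts: filterByExpr (minimum count 10, minimum total 15), TMM factors, the quasi-likelihood test without covariates and Benjamini-Hochberg adjustment over the 863 miRNAs kept. Standard errors come from its F statistic. Log2 levels and ratios had 0.5 added. limma 3.58.1 (voom) and DESeq2 1.42.0, other scalings and filters, a replicate block and leaving out each library were alternatives.

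The members and lists were chosen with earlier results of these data known. Named were the members, the other arms of their precursors, miRNAs with the same seed, 5 with overlapping seeds, and the 3 tested miRNAs most like the most abundant member. The ratios between members, the crossed block and the overlap of groups under other scalings were added after the data were seen. Replicates differed far beyond counting noise (chi-square per degree of freedom 795 and 712). With 2 libraries per group the tests rest on the spread shared across miRNAs.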

Additional observations from a re-analysis of the deposited data

How the results depend on the processing

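The 8 members had 76 values under other tools, scalings, filters, replicate blocks and summing of members. All kept their direction and stayed above a P of 0.05. Summing joined miR-130a-3p with miR-130b-3p and miR-301a-3p with miR-301b-3p, and each sum was entered for both of its members. miR-130a-3p had no sequence, so its likeness to miR-130b-3p was not checked. Of the 32 values with a library left out, 2 changed sign (miR-301a-3p, from -0.707 to 0.232, and miR-454-5p, from -0.402 to 0.022) and 2 (miR-301b-3p and miR-301a-5p) fell below 0.05, both without unexposed replicate 1, where 99 miRNAs in all did, so the count of members past it ranged from 0 to 2. Fits without a library leave a lone culture that is taken to vary like the other group. Over all tested miRNAs the 39 past P became 94 with at least 1 count in any library, 25 with the replicate block, 59 with crossed numbers as the replicate block (an alternative added later, since deviations of same-numbered libraries correlated at -0.186), with 0 members in either block, and between 12 and 109 without a library. Of the calls, 56.4% were higher in exposed cells, 48.6% with DESeq2's size factors, 81.1% with library size only and 34.9% with upper quartile scaling. The summed 3p level moved to 0.077 with library size only, to -0.186 with upper quartile scaling, and between -0.16 and 0.006 without a library. Sign changes of small values were also seen for miR-130a-5p (-0.006 with limma-voom, -0.01 with DESeq2, -0.067 with upper quartile scaling, -0.724, -0.459 and up to 0.697 without a library), miR-301b-5p (-0.878 to 0.438 without a library), miR-148a-3p (-0.026 with DESeq2 or its size factors, -0.1 with upper quartile scaling, -0.052 and -0.118 and up to 0.107 without a library), miR-148b-3p (0.071) and miR-152-3p (0.024) with library size only, and miR-152-3p (-0.405 to 0.112) without a library. Arm balance changed sign without a library for MIR130A (-0.239, -0.426, up to 0.849), MIR130B (-0.104, -0.094, up to 0.203), MIR301A (-0.043, -0.108, up to 0.287) and MIR454 (-0.358 to 0.099). The cause of these changes was not tested. Low counts limit miR-301a-3p, miR-301b-3p, miR-130a-5p and miR-301b-5p.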
